A study of Mus musculus with 12 samples.

Results

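The 9 genes described here are the mouse MHC class II genes H2-Aa, H2-Ab1, H2-Eb1, H2-DMa, H2-DMb1, H2-Oa and H2-Ob, the invariant chain gene Cd74 and the class II transactivator gene Ciita. They were chosen by name, and all 9 were found among the 40760 genes of the count table. Their mRNA was measured by bulk RNA-seq in 12 libraries of cells sorted from mouse lung with an antibody to CD140a, the protein made from Pdgfra, which marks fibroblasts. There were 3 libraries of each of 4 groups, WT mice given vehicle (WT vehicle) or bleomycin (WT bleo) and Pear1-/- mice given vehicle (Pear1-/- vehicle) or bleomycin (Pear1-/- bleo). They ask how bleomycin (bleo in short), a drug that injures the lung and causes fibrosis, and loss of the receptor gene Pear1 act on these cells. All mice were male, and those used in the study were C57BL/6 and 8 to 12 weeks old unless stated otherwise. The Pear1-/- mice carried a knockout-first allele in every tissue, in which a gene trap cassette within Pear1 truncates its transcript. Bleo was given to the lung as an aerosol through the trachea. Its dose, the day of sorting and the number of mice behind a library are not given for these libraries in the sources used here, so p-values measure the spread between libraries of a group, which may be technical.

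MHC class II molecules carry peptides from proteins that a cell has taken up to its surface, where CD4+ T cells read them. H2-Aa and H2-Eb1 encode an alpha and a beta chain of the classical molecules, and H2-Ab1 encodes the beta chain that pairs with H2-Aa. Cd74, the invariant chain, fills the peptide groove and guides new molecules to endosomes, where H2-DM (H2-DMa with H2-DMb1) exchanges the remnant of the invariant chain for peptide, and H2-O (H2-Oa with H2-Ob) inhibits H2-DM. Ciita does not bind DNA itself but is held at class II promoters by factors on the X and Y boxes, and it sets their transcription. Dendritic cells, B cells and macrophages express these genes without stimulation, many other cells, fibroblasts included, only after interferon gamma, and H2-O is best known from B cells.

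In the GENCODE M21 annotation of GRCm38, the 7 H2 genes lie on chromosome 17 within 34092340-34316674. Ciita lies on chromosome 16 at 10480059-10528418. RefSeq promoter windows of GRCm38.p6, from 250 bases before to 50 bases after a start site, were at hand for 6 members: H2-Aa, H2-Eb1, H2-Oa, H2-Ob, H2-DMb1 and H2-DMa, the last with a window for each of 2 start sites. The windows were searched on both strands for ATTGG, the core of the Y box, for its longer form CTGATTGG, and for GCAACAG of the X box. The 5 letters GCAAC were added after the sequences had been seen. CTGATTGG contains ATTGG, and GCAACAG contains GCAAC. The 120 bases before the start site are shown for the 5 members with ATTGG near it, since they hold letters like those of the boxes at which Ciita is held. Capitals mark ATTGG and GCAAC, or CCAAT and GTTGC where the match is on the other strand.
H2-Aa, chr17:34287824-34287943, minus strand: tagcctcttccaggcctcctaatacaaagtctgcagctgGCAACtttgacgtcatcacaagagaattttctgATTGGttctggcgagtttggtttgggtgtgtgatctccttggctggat
H2-Eb1, chr17:34305747-34305866, plus strand: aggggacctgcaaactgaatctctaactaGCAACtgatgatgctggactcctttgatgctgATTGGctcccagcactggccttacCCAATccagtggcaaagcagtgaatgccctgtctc
H2-Oa, chr17:34092259-34092378, plus strand: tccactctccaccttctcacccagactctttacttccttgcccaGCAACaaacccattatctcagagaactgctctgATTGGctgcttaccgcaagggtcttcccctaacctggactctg
H2-Ob, chr17:34238785-34238904, plus strand: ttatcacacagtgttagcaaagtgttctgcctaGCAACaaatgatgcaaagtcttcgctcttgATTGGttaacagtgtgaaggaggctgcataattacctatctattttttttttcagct
H2-DMb1, chr17:34153071-34153190, plus strand: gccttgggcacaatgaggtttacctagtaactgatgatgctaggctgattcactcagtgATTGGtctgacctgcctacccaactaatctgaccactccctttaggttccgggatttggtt

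CTGATTGG began 51 bases before the start site in H2-Aa, at position -51, and at -62 in H2-Eb1 and -46 in H2-Oa. The shorter ATTGG was also found at -57 in H2-Ob, at -61 in H2-DMb1, at -198 from the second start site of H2-DMa and, on the other strand, at -35 in H2-Eb1. GCAAC lay upstream of ATTGG on the same strand in 4 members, by 33 bases in H2-Aa, 32 in H2-Eb1, 33 in H2-Oa and 30 in H2-Ob. GCAACAG was in none of the 7 windows. Of all 32851 windows in the table, 37.4% held ATTGG, 4.10% CTGATTGG, 5.48% GCAACAG and 35.2% GCAAC, and 1.24% held GCAAC followed by ATTGG on the same strand at a distance of 20 to 45 bases. H2-Oa and H2-Ob, whose log2 fold changes with bleo were the smallest of the 9 genes, thus hold the same pair of letters at a like spacing as H2-Aa and H2-Eb1. The letters are a description of the sequence, not a measure of binding.

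**Figure D1:**
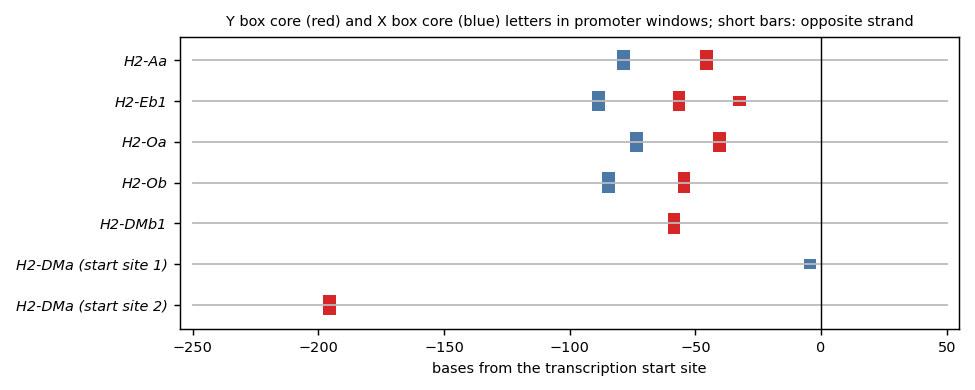
Positions of ATTGG (red) and GCAAC (blue) in the 7 promoter windows of 6 members, in bases from the start site, with tall bars on the strand of the gene and short bars on the other strand. H2-Aa, H2-Eb1, H2-Oa and H2-Ob show a blue bar 30 to 33 bases before a red one.

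Between 6702948 and 10447101 reads per library (median 9268248) were counted on genes. Pear1 itself, the targeted gene, had 576, 545 and 519 normalised read counts in the 3 WT vehicle libraries, 511, 501 and 547 in those labelled Pear1-/- vehicle, 256, 239 and 266 in WT bleo and 355, 372 and 344 in those labelled Pear1-/- bleo. A normalised read count is the count divided by the library's size factor. Between the vehicle groups Pear1 differed by -0.08 on the log2 scale (SE 0.073, adjusted p = 0.470 in edgeR's quasi-likelihood test), with overlap of the groups, and between the bleo groups it was higher by 0.48 in the libraries labelled Pear1-/- (adjusted p = 0.00012). Reads are counted over the whole gene, on both sides of the cassette, and genotypes are given here as labelled. Whether a library carries the label of another genotype was not tested, and each comparison of genotypes below holds only as far as the labels do. WT vehicle replicate 2 stood apart from its group. The chi-square of its counts per degree of freedom was 25.2 and 26.0 against the other WT vehicle libraries and 1.81 to 2.92 against those labelled Pear1-/- vehicle, while other pairs of a group gave 1.37 to 5.46. In several places the value without it is given too, where leaving it out changed the printed call of a gene or moved its printed fold change.

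The label of the cells was checked against marker genes. Pdgfra, the sorting marker, had 4565 ± 325 normalised read counts (SD, n = 3) in WT vehicle, 4165 ± 39.1 in those labelled Pear1-/- vehicle, 1360.1 ± 29.9 in WT bleo, and 2392 ± 18.8 in those labelled Pear1-/- bleo. Ptprc, which encodes the leukocyte antigen CD45, had 3303 ± 479, 3818 ± 263, 7616 ± 97.8 and 3365 ± 109 in the same order. The endothelial marker Pecam1 lay between 584 and 1051 and the epithelial marker Epcam between 129 and 231 normalised read counts over the 12 libraries. The 8 epithelial markers summed to 5165 to 6507 CPM (counts scaled to the library total) in WT vehicle, 6163 to 6968 in those labelled Pear1-/- vehicle, 1761 to 1788 in WT bleo, and 762 to 775 in those labelled Pear1-/- bleo. Scgb1a1, the secretory protein of club cells, went from 25294 ± 7611 to 5326 ± 93.5 normalised read counts with bleo in WT mice and from 33956 ± 2671 to 3331 ± 31.3 in those labelled Pear1-/- (SD, n = 3). Sftpc, the surfactant protein of alveolar type II cells, went from 15048 ± 1862 to 6394 ± 82.7 and from 17592 ± 1602 to 1610.2 ± 44.4. With bleo, 3 of the 8 epithelial markers fell and none rose by both criteria in WT mice, and 5 fell and 1 rose in those labelled Pear1-/-. The one that rose was Cdh1, which encodes E-cadherin, with log2 fold changes of 0.90 in WT and 1.26 in Pear1-/-. Without WT vehicle replicate 2 Cdh1 rose by both criteria in WT mice too, at 1.09 (adjusted p = 9.00e-11). The part of epithelial RNA in the results below was not tested. None of the markers of leukocytes, B cells, dendritic cells, macrophages, T cells, epithelium or endothelium was at or below 3 counts in every library of a group, so none of these cell types lacked its markers. Genes that leukocytes are known for were thus present in every group beside those of fibroblasts.

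Class II genes were abundant in every group. Together the 9 genes took 7997 to 9097 CPM in WT vehicle, 7604 to 8421 in those labelled Pear1-/- vehicle, 39313 to 40756 in WT bleo, and 16464 to 16850.0 in those labelled Pear1-/- bleo. Divided by the exonic length of the gene, Cd74 had the highest level of the 9 in each group, at 18663 ± 803 normalised read counts per kilobase in WT vehicle, 19904 ± 1706 in those labelled Pear1-/- vehicle, 84770 ± 2840.1 in WT bleo, and 36253 ± 476 in those labelled Pear1-/- bleo (SD, n = 3). The classical chains followed in the order H2-Eb1, H2-Ab1 and H2-Aa in each group, and then H2-DMb1 and H2-DMa. In Pear1-/- vehicle H2-Eb1 (5862 ± 195 per kilobase) and H2-Ab1 (5274 ± 529) did not differ beyond their spread. The 3 lowest places belonged to H2-Ob, H2-Oa and Ciita, and their order changed with bleo. Ciita, at 36.7 ± 1.92 per kilobase, was the lowest in WT vehicle, below H2-Oa (54.0 ± 13.4) and H2-Ob (118 ± 19.4). In WT bleo Ciita stood above both, at 202 ± 4.38 per kilobase against 156 ± 6.17 for H2-Ob and 120 ± 8.54 for H2-Oa. In Pear1-/- bleo it was again the lowest, at 85.1 ± 2.16, while H2-Oa (97.2 ± 4.84) and H2-Ob (94.3 ± 4.48) did not differ beyond their spread.

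Ciita had 337, 342 and 371 normalised read counts in the WT vehicle libraries, 372, 347 and 352 in those labelled Pear1-/- vehicle, 1919, 1967 and 1884 in WT bleo, and 832, 791 and 811 in those labelled Pear1-/- bleo. The vehicle groups overlapped, and each bleo group stood apart from them and from the other. Cd74 had 31228, 32732 and 30043.5 in WT vehicle, 31693, 31837 and 36726.5 in those labelled Pear1-/- vehicle, 140107, 139075 and 147802 in WT bleo, and 61081, 61542 and 59985 in those labelled Pear1-/- bleo. It showed the same order of groups, with every Pear1-/- bleo library between the vehicle and the WT bleo libraries. H2-Aa, the alpha chain, had 12737, 12985 and 11938 in WT vehicle, 12398, 12263 and 13469 in those labelled Pear1-/- vehicle, 68824.5, 68915 and 69722 in WT bleo, and 26870.1, 26908 and 26731 in those labelled Pear1-/- bleo. Its spread within each bleo group was small beside the distance between the groups. The beta chain gene H2-Ab1 ranged over 13121 to 13834, 12671 to 15108, 65081 to 67798 and 30808 to 31658 in the same order of groups. H2-Eb1 ranged over 11729 to 13419, 11137 to 11831, 63458 to 63536 and 24102 to 24971. In both genes the 2 vehicle groups overlapped and the bleo groups did not.

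H2-DMb1, the beta chain of the peptide exchange factor, had 879, 672 and 728 normalised read counts in WT vehicle, 707, 690.2 and 719 in those labelled Pear1-/- vehicle, 5194, 5039.8 and 5319 in WT bleo, and 2413, 2353 and 2292 in those labelled Pear1-/- bleo. H2-DMa ranged over 871 to 944, 812 to 960.4, 5351 to 5495 and 2363 to 2419. Both chains followed the pattern of the classical genes. Of the genes of the H2-DM inhibitor, H2-Ob departed from it. H2-Ob had 582, 757 and 570.1 in WT vehicle, 824, 829 and 775 in those labelled Pear1-/- vehicle, 876, 827 and 813 in WT bleo, and 483, 531 and 508 in those labelled Pear1-/- bleo. Its lowest values were those of Pear1-/- bleo, below every vehicle library, and in WT vehicle the high library was replicate 2. H2-Oa, the least counted member, had 61.8, 97.4 and 68.7 in WT vehicle, 122, 88.1 and 117 in those labelled Pear1-/- vehicle, 181, 168 and 157 in WT bleo, and 131, 144 and 134 in those labelled Pear1-/- bleo. H2-Oa had the same order of groups as the classical genes, with smaller distances between them. Its bleo groups lay above every vehicle library, and its vehicle groups overlapped through WT vehicle replicate 2 and Pear1-/- vehicle replicate 2.

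**Figure D2:**
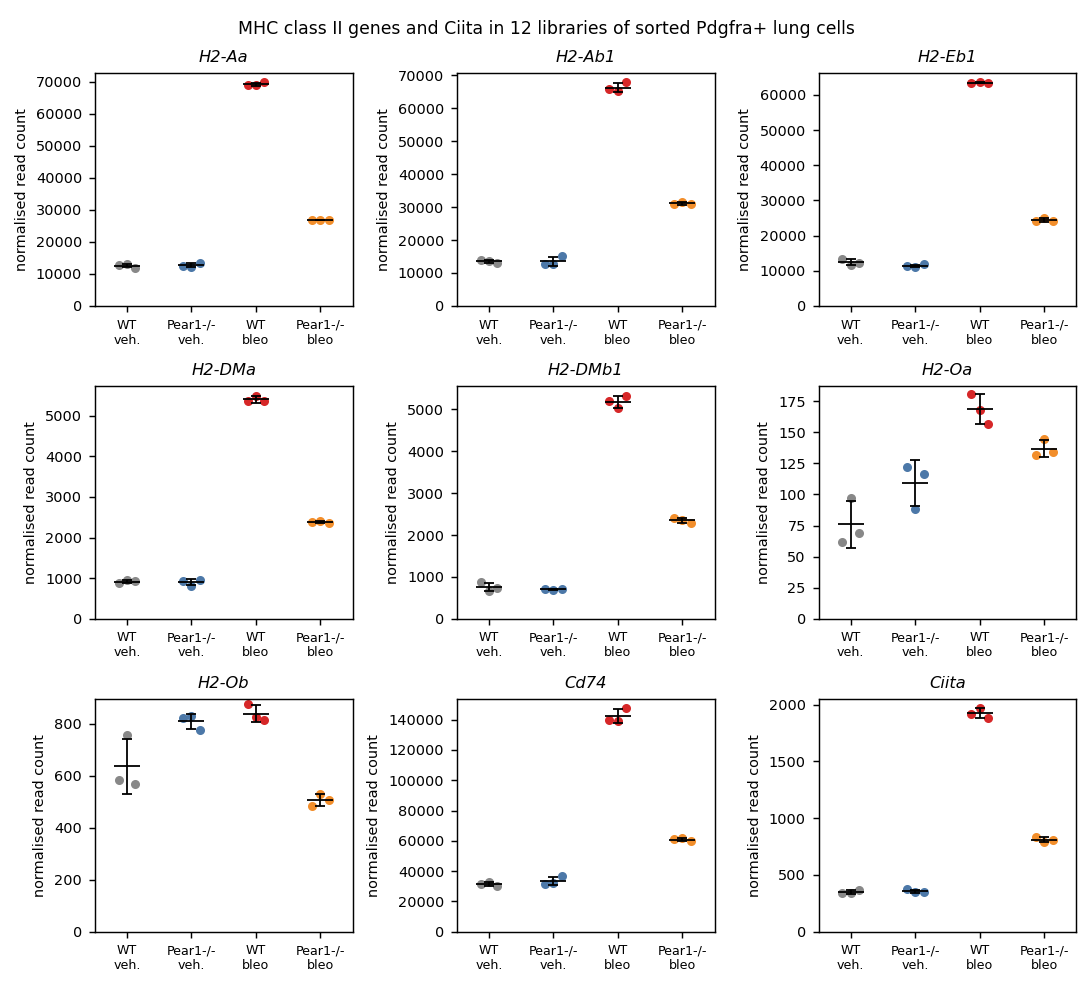
Normalised read counts of the 9 genes in each library (points), with the group mean and SD (black, n = 3), on axes that start at 0. The 8 genes other than H2-Ob share one order of groups, with WT bleo highest and Pear1-/- bleo between it and the vehicle groups. H2-Ob differs, with Pear1-/- bleo (483 to 531) as its lowest group.

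In WT mice 8 of the 9 genes rose with bleo, by a fold change above 2 and an adjusted p under 0.05 in edgeR's quasi-likelihood test, against 10.5% of all 17418 genes tested. All 9 passed the adjusted p alone, with 31.4% of all genes higher and 36.6% lower by that rule. The median log2 fold change was 2.36 over the 9 genes and -0.07 over all genes. H2-DMb1 rose most, by 2.78 on the log2 scale (SE 0.091, adjusted p = 1.15e-12), followed by H2-DMa at 2.57 (SE 0.076). H2-Aa rose by 2.47 (SE 0.053, adjusted p = 1.73e-14), and Ciita by 2.47 (SE 0.069, adjusted p = 2.18e-13). The other classical chains rose by 2.36 in H2-Eb1 and 2.30 in H2-Ab1, and Cd74 by 2.20 (SE 0.059, adjusted p = 1.45e-13). H2-Oa rose less, by 1.15 (SE 0.16, adjusted p = 1.43e-05). H2-Ob differed by 0.41 (SE 0.093, adjusted p = 0.00123), which is under a fold of 2. Without WT vehicle replicate 2 it differed by 0.62. In bulk samples a change in the number of cells of a type and a change in RNA per cell cannot be told apart.

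In the mice labelled Pear1-/- 6 of the 9 genes rose with bleo, against 8.38% of all genes tested. By the adjusted p alone 7 were higher and 1 was lower, with 28.9% of all genes higher and 33.4% lower. The median was 1.10 over the 9 genes and -0.05 over all genes. H2-DMb1 again rose most, by 1.74 (SE 0.088, adjusted p = 2.62e-10), then H2-DMa by 1.41 (SE 0.074), H2-Ab1 by 1.20 (SE 0.062), Ciita by 1.19 (SE 0.068, adjusted p = 1.09e-09), H2-Eb1 by 1.10 and H2-Aa by 1.08. Cd74 was higher by 0.87 (SE 0.057, adjusted p = 5.08e-09), short of a fold of 2. H2-Ob was lower in bleo, with a log2 fold change of -0.67 (SE 0.094, adjusted p = 1.94e-05). H2-Oa differed by 0.33 (SE 0.15, adjusted p = 0.0671) and did not pass. Without WT vehicle replicate 2 its adjusted p here was 0.0194.

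Between the bleo groups 7 of the 9 genes were lower in the libraries labelled Pear1-/- than in WT, against 8.76% of all genes lower and 6.26% higher. By the adjusted p alone 8 were lower, with 23.9% of all genes lower and 22.1% higher by that rule. The median log2 fold change was -1.19 over the 9 genes and -0.01 over all genes. The classical chains H2-Eb1, H2-Aa and H2-Ab1 had log2 fold changes of -1.39 (SE 0.055, adjusted p = 9.71e-11), -1.38 (SE 0.051) and -1.10 (SE 0.062). Ciita had -1.26 (SE 0.065, adjusted p = 1.02e-09) and Cd74 -1.24 (SE 0.057, adjusted p = 3.32e-10). The H2-DM chains had -1.19 in H2-DMa and -1.15 in H2-DMb1 (SE 0.085, adjusted p = 4.14e-08). H2-Ob had -0.74 (SE 0.094, adjusted p = 1.20e-05), under a fold of 2. H2-Oa had -0.32 (SE 0.14, adjusted p = 0.0876), which did not pass, although its Pear1-/- bleo libraries all lay below the WT bleo libraries. Without WT vehicle replicate 2, which enters through the shared spread, its adjusted p was 0.0135. This comparison shares its WT bleo libraries with the first one.

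Between the vehicle groups none of the 9 genes passed either rule with edgeR, and 3 had an unadjusted p under 0.05. Of all genes 0.0344% were higher and 2.33% lower in the libraries labelled Pear1-/- by both criteria, and 0.855% were higher and 3.65% lower by the adjusted p alone. Ciita differed by 0.02 (SE 0.071), H2-Aa by 0.01 (SE 0.05) and H2-Ab1 by -0.01 (SE 0.061) on the log2 scale. The largest differences were those of the H2-O chains, 0.50 in H2-Oa (SE 0.17, adjusted p = 0.0726) and 0.34 in H2-Ob (SE 0.093, adjusted p = 0.0509). These values rest on WT vehicle replicate 2. Without it 4 genes were higher and 1 lower by the adjusted p alone, in a fit where 25.5% of all genes were higher and 29.7% lower by that rule. H2-Oa was then higher by 0.80 (adjusted p = 0.000107), H2-Ob by 0.56 (adjusted p = 2.07e-08), Cd74 by 0.19 and H2-Aa by 0.11, H2-Eb1 differed by -0.11, and none passed a fold of 2. DESeq2's Wald test put H2-Ob alone under an adjusted p of 0.05 (0.044) with all libraries kept. Without a filter on low counts edgeR put H2-Oa (0.59, adjusted p = 0.005) and H2-Ob (0.43, adjusted p = 0.00261) past that rule, with 5.66% of all genes higher and 8.17% lower. With library size alone as the scaling it put H2-Eb1 there (-0.29, adjusted p = 0.0310), and with the replicate block H2-Ob (adjusted p = 0.0496).

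The interaction of genotype and bleo tests whether the response to bleo differed between the genotypes. It was negative in all 9 genes, and 8 passed both criteria, against 7.06% of all genes in that direction and 8.61% in the other. All 9 passed the adjusted p alone, with 19.1% of all genes negative and 17.9% positive by that rule. It was -1.39 in H2-Aa (SE 0.071, adjusted p = 6.04e-09), -1.33 in Cd74 (SE 0.08), -1.28 in Ciita (SE 0.096, adjusted p = 1.73e-07) and -1.25 in H2-Eb1. H2-DMa had -1.16, H2-Ab1 -1.10, H2-Ob -1.08 (SE 0.13, adjusted p = 1.84e-05) and H2-DMb1 -1.04 (SE 0.12). H2-Oa had -0.82 (SE 0.22, adjusted p = 0.00946), short of a fold of 2, but passed both criteria without WT vehicle replicate 2 (-1.13) or without Pear1-/- vehicle replicate 2 (-1.01). With scaling by library size alone, which moved the median of all genes by 0.151, H2-Ab1, H2-DMb1 and H2-Ob fell short of a fold of 2 and 5 genes passed both criteria. The comparison between bleo groups and the interaction share the bleo libraries.

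**Figure D3:**
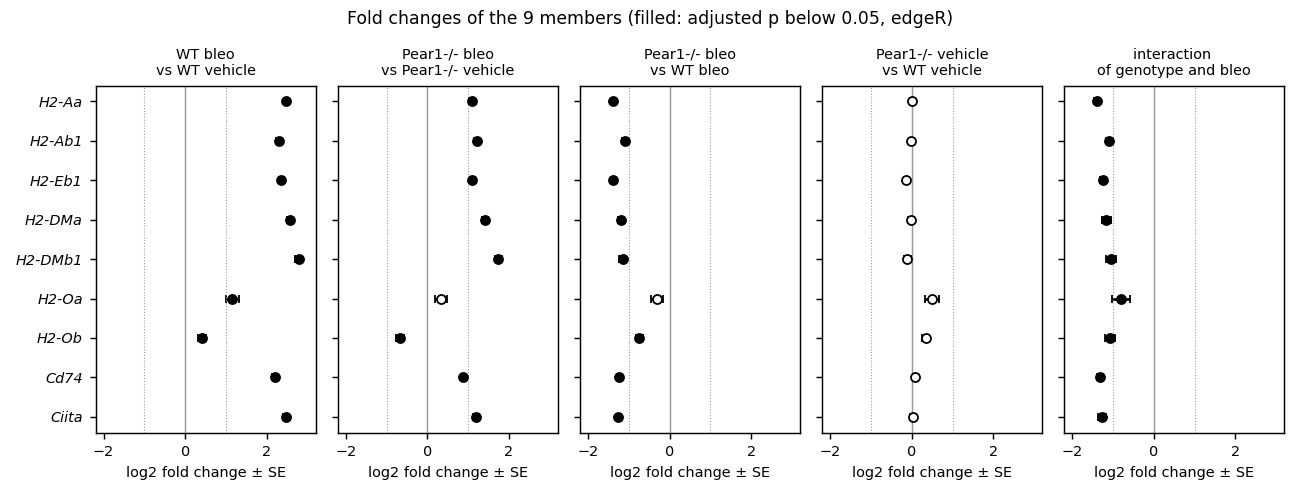
Log2 fold changes of the 9 genes with their SE from edgeR in the 4 comparisons and the interaction, with filled points for an adjusted p under 0.05 and dotted lines at a fold of 2. H2-Oa and H2-Ob lie to the left of the other genes in both bleo responses. All points of the comparison of vehicle groups are open.

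The levels of leukocyte genes moved with the same groups. The summed level of 10 leukocyte markers was 2044 to 2516 CPM in WT vehicle, 2479 to 2539 in those labelled Pear1-/- vehicle, 6453 to 6555 in WT bleo, and 3410.3 to 3427 in those labelled Pear1-/- bleo. With bleo, 9 of the 10 rose in WT mice and none of the 10 in the mice labelled Pear1-/-, where 6 were higher by the adjusted p alone. Between the bleo groups 2 of the 10 were lower by both criteria and all 10 by the adjusted p alone. The 12 macrophage and monocyte markers summed to 2074 to 2152 CPM in WT vehicle, 2006 to 2112 in those labelled Pear1-/- vehicle, 18590 to 18712 in WT bleo, and 6998 to 7206 in those labelled Pear1-/- bleo, and 11 of the 12 rose with bleo in each genotype. Adgre1, which encodes the macrophage marker F4/80, went from 341 ± 20.4 to 3089 ± 60.8 normalised read counts in WT mice and from 345 ± 18.5 to 969 ± 17.7 in those labelled Pear1-/- (SD, n = 3). By summed level the macrophage markers were thus highest in WT bleo and next in Pear1-/- bleo, as Ciita and Cd74 were, while the vehicle groups overlapped. Their part in the class II result was not tested.

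Markers of B cells, in which H2-O is best known, were ordered otherwise. Their 10 genes summed to 607 to 877 CPM in WT vehicle, 855 to 887 in those labelled Pear1-/- vehicle, 961 to 977 in WT bleo, and 633 to 654 in those labelled Pear1-/- bleo. With bleo in WT mice 8 of the 10 were higher by the adjusted p alone, against 31.4% of all genes. By both criteria 1, Fcer2a, was higher, against 10.5% of all genes. Without WT vehicle replicate 2 all 10 were higher by the adjusted p alone and 4 by both criteria. In that fit 2317 of 20405 genes were higher by both criteria. In the mice labelled Pear1-/- 8 of the 10 were lower in bleo by the adjusted p alone and none by both criteria, and between the bleo groups 3 were lower by both criteria. Cd79a, a signalling chain of the B cell receptor, had 1990 ± 817 normalised read counts in WT vehicle, 2983 ± 300 in those labelled Pear1-/- vehicle, 2406 ± 17.7 in WT bleo, and 2031 ± 23.4 in those labelled Pear1-/- bleo (SD, n = 3). In WT vehicle it was 2930 in replicate 2 and 1587 and 1452 in the others. H2-Ob and the sums of the B cell, leukocyte, T cell and epithelial markers all had WT vehicle replicate 2 as the highest library of its group and Pear1-/- bleo below WT bleo. Among the 3 WT vehicle libraries the B cell marker Fcer2a was lowest in replicate 2, at 286 against 303 and 312 normalised read counts. What the RNA of any of these cells adds to H2-Ob was not tested. The 10 dendritic cell markers summed to 443 to 461, 442 to 457, 832 to 872 and 459 to 472 CPM in the same order of groups. With bleo, 4 of the 10 rose and 1 fell by both criteria in WT mice, and 3 rose and 2 fell in those labelled Pear1-/-. Those that rose in WT were Itgax (log2 fold change 2.88), which macrophages of the lung also express, Clec10a (3.58), Batf3 (2.35) and Cd209a (1.63), and Siglech fell (-1.08). Itgax added most to the rise of the sum in WT mice, from 55.7 ± 5.53 to 386 ± 12.6 CPM (SD, n = 3). In every group but WT bleo Ccr7 had a higher level than Itgax, with 2253 to 2950 against 441 to 501 normalised read counts in WT vehicle. The 8 T cell markers summed to 201 to 255, 254 to 273, 105 to 117 and 87.2 to 96.4 CPM, and thus were lower in both bleo groups. Fibroblast markers summed to 15123 to 15706, 15611 to 15907, 12365 to 12485 and 32370.2 to 33124 CPM and were highest in the group labelled Pear1-/- bleo. The collagen genes Col1a1, Col1a2 and Col3a1 made up 94.5% to 94.7% of the sum there. Of the 10 fibroblast markers, 2 rose and 5 fell with bleo by both criteria in the mice labelled Pear1-/-, with a median log2 fold change of -0.92. Col1a1 rose by 2.18, while Dcn (-2.41), Lum (-1.33), Tcf21 (-1.38), Col13a1 (-1.05) and Col14a1 (-2.13) fell, and Pdgfra was lower by the adjusted p alone (-0.80).

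**Figure D4:**
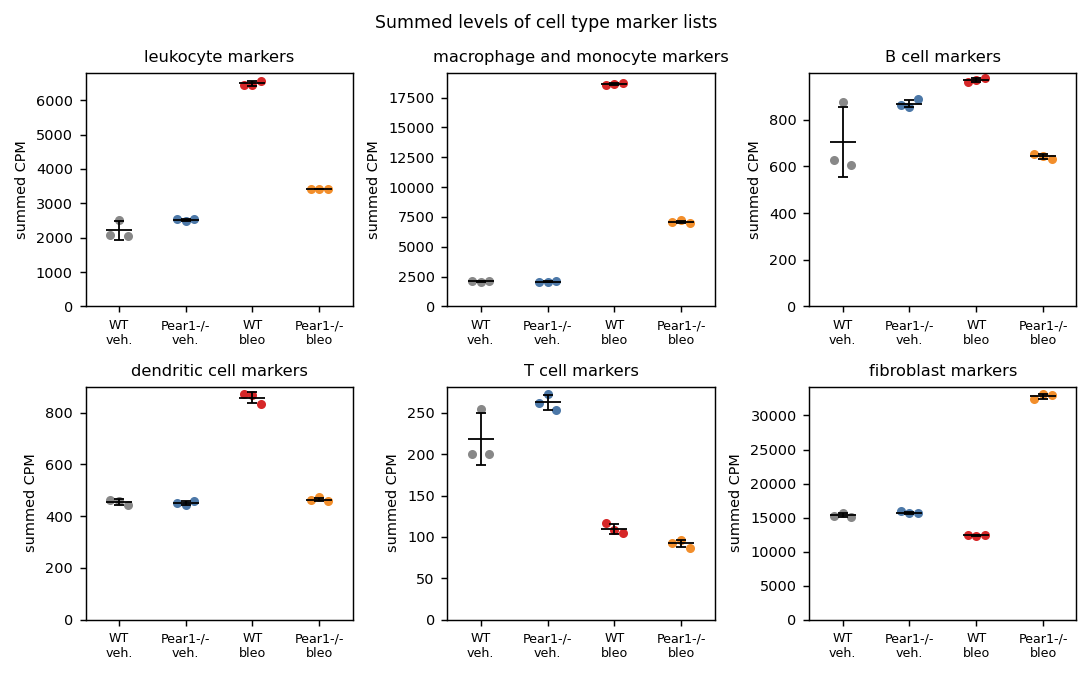
Summed CPM of 6 cell type marker lists in each library (points), with the group mean and SD (black, n = 3), on axes that start at 0. The macrophage list is highest in WT bleo (18590 to 18712 CPM) and the fibroblast list in Pear1-/- bleo (32370.2 to 33124 CPM).

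Ratios of counts within a library set the class II genes beside Ptprc as a measure of leukocyte RNA. They do not depend on how libraries are scaled. The log2 ratio of Ciita to Ptprc was -3.16, -3.49 and -3.03 in WT vehicle, -3.43, -3.50 and -3.32 in those labelled Pear1-/- vehicle, -1.98, -1.97 and -2.001 in WT bleo, and -2.05, -2.03 and -2.07 in those labelled Pear1-/- bleo. Both bleo groups stood above both vehicle groups, while the bleo groups were close together. With bleo the ratio rose by 1.24 in WT mice and by 1.36 in those labelled Pear1-/-, without overlap of the groups (p = 0.1 in a two-sided exact permutation test, which cannot go lower with 3 libraries a group). Between the bleo groups it differed by -0.07, again without overlap (exact p = 0.1). Adjusted over the 56 ratio comparisons made, a p of 0.1 became 0.156, so no ratio could pass a threshold of 0.05. For Cd74 the differences were 0.97 and 1.05 with bleo and -0.05 between the bleo groups, the last with overlap (exact p = 0.5).

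Of the 7 members other than the H2-O chains, the ratio to Ptprc was between 0.97 and 1.56 higher on the log2 scale in WT bleo than in WT vehicle and between 1.05 and 1.92 higher in Pear1-/- bleo than in Pear1-/- vehicle. The lowest values were those of Cd74 and the highest those of H2-DMb1. Between the bleo groups these 7 ratios differed by -0.20 to 0.09, against log2 fold changes of -1.39 to -1.10 in edgeR's fit. The values depended on the measure of leukocyte RNA. With the summed counts of the 10 leukocyte markers in place of Ptprc, the 7 ratios were 0.55 to 1.14 higher with bleo in WT mice and 0.49 to 1.36 higher in those labelled Pear1-/-, with Cd74 again the lowest and H2-DMb1 the highest. Between the bleo groups all 7 were then negative, from -0.46 in H2-Eb1 and -0.45 in H2-Aa to -0.17 in H2-Ab1, with -0.33 in Ciita and -0.31 in Cd74. The ratio of H2-Ob to Ptprc went the other way, with differences of -0.81 and -0.49 with bleo in WT and Pear1-/-, and was 0.45 higher in Pear1-/- bleo than in WT bleo (exact p = 0.1 for each). The ratio of H2-Oa to Ptprc differed by -0.05 with bleo in WT (exact p = 0.7) and by 0.03 without WT vehicle replicate 2. It was 0.52 higher with bleo in the mice labelled Pear1-/-, without overlap (exact p = 0.1), and 0.88 higher in Pear1-/- bleo than in WT bleo (exact p = 0.1). With the summed markers H2-Ob had -1.22, -1.05 and 0.19 in these 3 comparisons, and H2-Oa had -0.46 and -0.04 with bleo in WT and Pear1-/- and 0.61 between the bleo groups.

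The mRNA of H2-O chains was also set beside that of the H2-DM chains. In bulk RNA it cannot be told whether both come from the same cells. The log2 ratio of H2-Ob to H2-DMb1 was -0.59, 0.17 and -0.35 in WT vehicle, 0.22, 0.26 and 0.11 in those labelled Pear1-/- vehicle, -2.57, -2.61 and -2.71 in WT bleo, and -2.32, -2.15 and -2.17 in those labelled Pear1-/- bleo. Every bleo library lay below every vehicle library, and replicate 2 of WT vehicle lay among those labelled Pear1-/- vehicle. Bleo moved the ratio to 0.194-fold in WT mice and to 0.188-fold in those labelled Pear1-/- (exact p = 0.1 for each). It was 1.33-fold higher in Pear1-/- bleo than in WT bleo, without overlap. The log2 ratio of H2-Oa to H2-DMa was -3.61 ± 0.29 in WT vehicle, -3.05 ± 0.13 in those labelled Pear1-/- vehicle, -5.00 ± 0.11 in WT bleo, and -4.12 ± 0.056 in those labelled Pear1-/- bleo (SD, n = 3), in 4 groups that did not overlap. Bleo moved it to 0.381-fold in WT mice and to 0.477-fold in those labelled Pear1-/- (exact p = 0.1 for each).

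Ratios among the other members moved less. The log2 ratio of Ciita to Cd74 was -6.48 ± 0.13 in WT vehicle, -6.54 ± 0.15 in those labelled Pear1-/- vehicle, -6.21 ± 0.077 in WT bleo, and -6.23 ± 0.046 in those labelled Pear1-/- bleo (SD, n = 3), so that it differed by 0.27 and 0.31 with bleo and by -0.02 between the bleo groups (exact p = 0.7). H2-Aa to H2-Ab1, the chains of one molecule, differed by 0.17 with bleo in WT mice and by -0.13 in those labelled Pear1-/-, and its bleo groups did not overlap, at 0.06 ± 0.021 and -0.21 ± 0.019. H2-Eb1 to H2-Ab1 was -0.06 ± 0.031 in WT bleo and -0.35 ± 0.0087 in those labelled Pear1-/- bleo, also without overlap (exact p = 0.1).

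**Figure D5:**
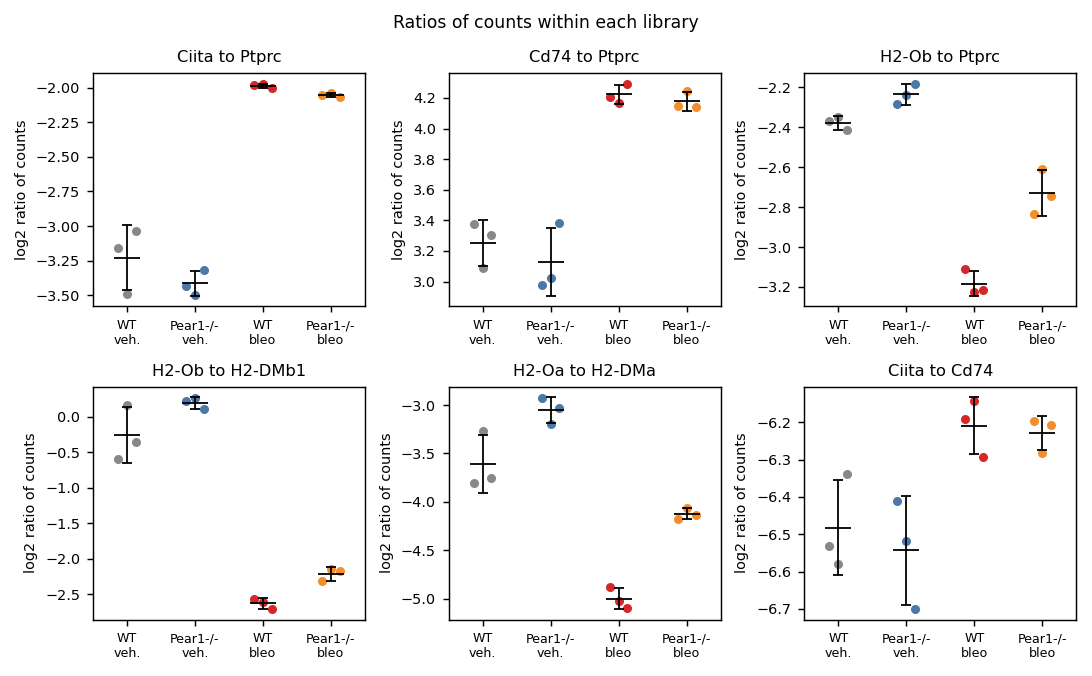
Log2 ratios of read counts within each library (points, 0.5 added to each count), with the group mean and SD (black, n = 3). Ciita to Ptprc and Cd74 to Ptprc are higher in both bleo groups, and H2-Ob to Ptprc, H2-Ob to H2-DMb1 and H2-Oa to H2-DMa are lower.

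A list of 38 further genes of the class II pathway was read beside the 9, and all were tested. It held other class II genes, factors of class II transcription and interferon gamma signalling, genes of peptide loading and traffic, and co-stimulators and receptors that work with class II. In WT mice 12 rose and 2 fell with bleo by both criteria, in those labelled Pear1-/- 4 rose and 5 fell, between the bleo groups none was higher and 7 were lower in Pear1-/-, between the vehicle groups none passed, and 9 had a negative interaction that passed. By the adjusted p alone the counts were 24 higher and 8 lower, 14 and 14, 1 and 22, 1 and 2, and 0 and 22. The shares of all genes by that rule were 31.4% and 36.6%, 28.9% and 33.4%, 22.1% and 23.9%, 0.855% and 3.65%, and 17.9% and 19.1%. Without WT vehicle replicate 2, 23 were higher and 3 lower between the vehicle groups by the adjusted p alone, against 25.5% and 29.7% of all genes. By both criteria 2 of the 38 were then higher and 0 lower, in a fit where 586 of 20405 genes were higher and 4353 lower. The medians of the 38 genes were 0.50, 0.10, -0.40, 0.15 and -0.46 in the same order. By both criteria the shares of all genes were 10.5% higher and 23.5% lower in WT bleo, 8.38% and 19.4% in Pear1-/- bleo, 6.26% and 8.76% between the bleo groups, 0.0344% and 2.33% between the vehicle groups, and 8.61% and 7.06% in the interaction.

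Of 7 genes of peptide loading and traffic, 5 rose with bleo in WT mice and 4 in those labelled Pear1-/-, and none fell by both criteria. Ctsl, the protease cathepsin L (-0.18 and -0.22), and March8, a ubiquitin ligase (-0.42 and -0.33), were lower by the adjusted p alone. Without WT vehicle replicate 2 Ctsl did not pass in WT mice, at -0.0038 (adjusted p = 0.947). March8 was then at -0.25 there (adjusted p = 0.0206). Ctss, the protease cathepsin S that trims the invariant chain, went from 2539 ± 63.2 to 32902 ± 417 normalised read counts with bleo in WT mice and from 2489 ± 67.5 to 14756 ± 214 in those labelled Pear1-/- (SD, n = 3), log2 fold changes of 3.71 (adjusted p = 7.48e-16) and 2.57 (adjusted p = 2.83e-14). Ifi30, a thiol reductase that opens disulfide bonds of antigens in endosomes, rose by 3.16 and 2.1. Lgmn, an endosomal protease, rose by 2.14 and 1.75. March1, a ubiquitin ligase that brings class II down from the surface, rose by 1.99 in WT mice (SE 0.15) and by 1.81 in those labelled Pear1-/- (SE 0.16, adjusted p = 1.69e-07). Cd83, which opposes March1, had 7217 ± 429 normalised read counts in WT vehicle, 6616 ± 119 in those labelled Pear1-/- vehicle, 18338 ± 134 in WT bleo, and 7888 ± 150 in those labelled Pear1-/- bleo, and was lower by a log2 fold change of -1.23 between the bleo groups (adjusted p = 3.32e-10).

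Factors that act on class II promoters or on Ciita moved in several ways. Spi1, the myeloid transcription factor PU.1, rose by 2.1 with bleo in WT mice (SE 0.077, adjusted p = 4.13e-12) and was higher by 0.93 in those labelled Pear1-/-, short of a fold of 2. Rfxap, a subunit of the factor that binds the X box, was counted at only 46 to 68 reads in the WT bleo libraries and 23 to 31 in those labelled Pear1-/- bleo, and had a log2 fold change of -1.23 between them (SE 0.26, adjusted p = 0.00137). Its normalised read counts were 13.3, 15.2 and 18.3 in WT vehicle and 62.5, 46.9 and 51.6 in WT bleo. They were 13.3, 10.2 and 24.0 in those labelled Pear1-/- vehicle and 20.4, 26.6 and 21.9 in those labelled Pear1-/- bleo. Ifng, which encodes interferon gamma, the inducer of Ciita, was counted at a low level in every group. It had 25.9 ± 8.81 normalised read counts in WT vehicle, 40.5 ± 3.25 in those labelled Pear1-/- vehicle, 10.6 ± 4.57 in WT bleo, and 2.99 ± 0.40 in those labelled Pear1-/- bleo (SD, n = 3). Its level fell with bleo in both genotypes, with log2 fold changes of -1.29 (adjusted p = 0.00486) and -3.70 (adjusted p = 1.74e-06), while Ciita rose. Without WT vehicle replicate 2 the value in WT was -0.93 (adjusted p = 0.0251), under a fold of 2. In Pear1-/- bleo it rested on 3 to 4 reads per library, so the size of that fold change is uncertain. Irf1, a transcription factor induced by interferon, fell with a log2 fold change of -1.27 in the mice labelled Pear1-/- (SE 0.13, adjusted p = 8.81e-07) and was lower by the adjusted p alone in WT mice, at -0.76, or -0.44 without WT vehicle replicate 2.

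Of the genes whose products meet class II or the T cell at the surface, Cd86, a co-stimulator, had 560 ± 8.03, 590 ± 12.5, 1894 ± 40.2 and 849 ± 14.9 normalised read counts in the order of groups given for Ifng (SD, n = 3). Between the bleo groups it was lower in Pear1-/-, by a log2 fold change of -1.17 (adjusted p = 1.002e-09). Lag3, an inhibitory receptor for class II, had a negative interaction of -1.64 (SE 0.22, adjusted p = 4.00e-05), from log2 fold changes with bleo of 1.20 in WT mice and -0.44 in those labelled Pear1-/-. Cd4, the T cell co-receptor for class II, fell with a log2 fold change of -1.16 in the mice labelled Pear1-/- (SE 0.18, adjusted p = 4.30e-05) and differed by -0.29 in WT mice (adjusted p = 0.165), or by 0.11 (adjusted p = 0.433) without WT vehicle replicate 2. H2-Ea-ps, annotated as a pseudogene of the alpha chain that pairs with H2-Eb1, had 8.49, 69.0 and 4.58 normalised read counts in WT vehicle, 87.1, 78.9 and 78.6 in those labelled Pear1-/- vehicle, 2.76, 1.02 and 0 in WT bleo and 0 in every library labelled Pear1-/- bleo. Its WT vehicle replicate 2 lay near the libraries labelled Pear1-/- vehicle and not with its own group.

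Across the 12 libraries, which fall into 4 groups, the log2 CPM of the 7 members other than H2-Oa and H2-Ob followed each other closely, with Pearson's r of at least 0.979 for every pair, as a description and not a test. H2-Oa had r of 0.788 to 0.844 with them, and H2-Ob 0.0683 to 0.257. Of the 17418 genes tested, those most like Ciita were Adgre1 (r = 0.999, n = 12), Clec4a3, Cd72, Tmsb4x and Gm2a. Those most like Cd74 were Hexa (r = 0.998, n = 12), Unc93b1, Psap, Spi1 and Ms4a7. The libraries share their grouping, so that any gene with the same order of groups has a high r.

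Some counts cannot be assigned to 1 gene with certainty. Cd74 lies on chromosome 18 at 60803848-60812652 and holds the microRNA gene Mir5107. The kit keeps no strand, and H2-DMa overlaps Brd2 and other antisense models, H2-Eb1 overlaps Gm20513, H2-Oa overlaps BC051537 and Ciita overlaps Dexi, so reads of these pairs cannot be told apart where they overlap. H2-DMb1 and its near-identical neighbour H2-DMb2 may share reads. H2-DMb2 rose by 1.20 with bleo in WT mice (SE 0.082, adjusted p = 5.12e-09) and differed by 0.52 in those labelled Pear1-/-, against 2.78 and 1.74 in H2-DMb1.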

How the data were processed

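The libraries came from full-length cDNA of a SMART-Seq v4 kit, in which no strand is marked, and the reads were aligned by the authors to GRCm38 with HISAT2. The program that counted reads per gene is not given in the sources used here. The deposited files hold raw read counts for 40760 genes in 12 libraries and the same counts divided by the size factor of each library, a normalized signal of the authors, whose quotients gave size factors of 0.825 to 1.16.

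Groups were taken from the labels. Counts were fitted with edgeR 4.0.16 (quasi-likelihood test, TMM scaling, edgeR's filter on low counts, 1 mean per group over 12 libraries, 17418 genes tested), with p-values adjusted by Benjamini-Hochberg over all genes tested. A gene was called at a fold change above 2 and an adjusted p under 0.05. Alternatives were DESeq2 1.42.0, limma 3.58.1 on log2 of the normalized values plus 1, other scalings, no filter, fits of only the groups compared, a block for the replicate number and leaving out each library. The fits were tested on simulated data. Ratios of counts, with 0.5 added to each, were compared by exact permutation tests in scipy 1.17.1. The genes named were the 9 members, up to 4 called pathway genes in each direction per comparison whose mean log2 CPM reached 1, the sorting and lineage markers, marker genes of high level and the genes most like Ciita and Cd74. H2-DMb2, the neighbour of H2-DMb1, and single genes of the marker and pathway lists that complete a count (among them Cdh1, Clec10a, Batf3, Cd209a, Siglech, Fcer2a, Ctsl and March8) were named after their values were seen. The members and lists were chosen with earlier results of these data known. Of 40760 gene IDs, 40394 were in GENCODE M21, and promoter sequences came from RefSeq (GRCm38.p6). A floor of 3 counts was 0.287 to 0.448 CPM, which covers counting error only.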

Additional observations from a re-analysis of the deposited data

Results flagged for a closer look

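The response to bleo differed between the genotypes in each of the 9 genes by the interaction term of edgeR's fit, with an adjusted p under 0.05. The log2 interaction was -1.39 in H2-Aa, -1.10 in H2-Ab1, -1.25 in H2-Eb1, -1.16 in H2-DMa, -1.04 in H2-DMb1, -0.82 in H2-Oa, -1.08 in H2-Ob, -1.33 in Cd74 and -1.28 in Ciita. The 10 leukocyte markers had interactions of -1.40 to -0.99, all with an adjusted p under 0.05, and their part in these values was not tested.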

How the results depend on the processing

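The 171 alternative values of the members' fold changes in each of the WT bleo, Pear1-/- bleo and bleo group comparisons kept their direction, and none changed its call by both criteria together. By the adjusted p alone H2-Oa passed with bleo in Pear1-/- with library size alone (0.0238), without a filter (0.0295), in the fit of only these groups (0.0281) and without WT vehicle replicate 2 (0.0194), and between the bleo groups in the last 2 of these (0.00512 and 0.0135). With library size alone as the scaling, which moved the median of all genes by -0.147 between the vehicle groups and by 0.151 in the interaction, 5 members in place of 8 passed in the interaction, with H2-Ab1 at -0.94, H2-DMb1 at -0.88 and H2-Ob at -0.93. H2-Oa passed both criteria there without WT vehicle replicate 2 (-1.13) and without Pear1-/- vehicle replicate 2 (-1.01). Between the vehicle groups 27 of 171 values turned, all of them small. With library size alone H2-Aa was at -0.14, Cd74 at -0.0631 and Ciita at -0.13. Without a filter H2-Ab1 was at 0.0892 and H2-DMa at 0.0663, and in the fit of only these groups H2-Aa was at -0.000996. Leaving out each library gave -0.0191 to 0.111 in H2-Aa, -0.0504 to 0.0915 in H2-Ab1, -0.0628 to 0.0931 in H2-DMa, -0.14 to 0.0072 in H2-DMb1 and -0.00067 to 0.10 in Ciita.

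Of 428 alternative ratio values 11 turned. With summed leukocyte markers in place of Ptprc the difference between the bleo groups was -0.17 in H2-Ab1, -0.26 in H2-DMa and -0.22 in H2-DMb1, and that of H2-Oa with bleo in Pear1-/- was -0.0403. Leaving out each library, H2-DMa to Ptprc ranged over -0.0357 to 0.0206 between the bleo groups, H2-Oa to Ptprc over -0.116 to 0.0296 with bleo in WT, and Ciita to Cd74 over -0.0621 to 0.0129 between the bleo groups and -0.127 to 0.0182 between the vehicle groups.

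The replicate numbers did not pair the libraries, since same-numbered libraries had correlations of -0.16 to 0.10 in their deviations from the group means and 0 of 12 matched best with their own number. With the replicate block 411 called genes between the vehicle groups became 349, and H2-Ob there had an adjusted p of 0.0496. Over all genes, calls between the vehicle groups numbered 437 with DESeq2, 28 with limma, 810 with library size alone, 2990 without a filter, 4939 without WT vehicle replicate 2 and 0 in the fit of only these groups or without any other 1 library, where 2955 to 6917 genes had an unadjusted p under 0.05. Calls in WT bleo were 5910, and 13669 without a filter, 10085 with DESeq2 and 9192 without WT vehicle replicate 2. In Pear1-/- bleo 4847 became 8019 without a filter, and in the interaction 2729 became 4468 without WT vehicle replicate 2. The causes were not tested. Of the members H2-Oa rests on the fewest reads, and Ifng, Rfxap and H2-Ea-ps on fewer still in some groups.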
